A study of Mus musculus with 6 samples.

Results

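The genes described are the neutrophil chemokine receptor Cxcr2 and 5 mouse CXC chemokines of the ELR type, namely Cxcl1, Cxcl2, Cxcl3, Cxcl5 and Cxcl15. They were chosen by symbol, and all 6 of the 6 were found among the 32285 genes counted. The data are single-cell transcriptomes of orthotopic pancreatic tumours, taken 4 weeks after KPC cells, a mouse pancreatic cancer line, had been injected into the pancreas of C57BL/6 mice aged 6 to 8 weeks. OE-Vector tumours grew from KPC cells with a control vector, and OE-MLKL tumours from KPC cells that overexpressed MLKL, the pseudokinase that breaks the plasma membrane in necroptosis. The host mice carried no stated alteration, and the construct was in the injected cells alone, whose driving promoter and clonality are not given in the sources used here. The labels name 3 samples a group, and 4 had counts here, the first OE-Vector sample and all OE-MLKL samples, while OE-Vector 2 and 3 were not analysed here.

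CXCR2 is a G protein-coupled receptor on mature neutrophils that steers them out of the marrow and along gradients of ELR chemokines. CXCL1, CXCL2, CXCL3 and CXCL5 are its classic mouse ligands, made by tumour cells, stroma and myeloid cells under NF-kappaB-activating signals, and CXCL15, first known from lung epithelium, also attracts neutrophils. Mice have no CXCL8, the main human ligand, and in tumours the axis is known for bringing in neutrophils and related suppressive myeloid cells.

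The 4 libraries held 150591289 to 169978362 UMIs (a UMI counts 1 captured transcript), and 13489 to 18808 cells a library were kept. Cells were gated by markers that include none of the 6 genes, which gave 26276 neutrophil-like, 15468 cancer-like, 9715 macrophage-like, 3004 T cell-like, 486 monocyte-like and 358 fibroblast-like cells, 5340 ungated cells and smaller classes. Levels are CPM, the UMIs of a gene for every 1000000 UMIs of the class in that library. The free-RNA background of a class is the level expected from RNA outside cells, whose composition came from barcodes with at most 100 UMIs and whose share was scaled on the markers of another class. The targeted gene did not separate the labels: Mlkl in cancer-like cells was 15.8 CPM in the OE-Vector 1 library, 9.26 and 12.9 CPM in the libraries labelled OE-MLKL 1 and 2, and 19.8 CPM in that labelled OE-MLKL 3, so every direction below holds for the labels. OE-MLKL 1 and 2 were the nearest pair of libraries in each abundant class, with a root mean square difference on the log2 scale of 0.446 in neutrophil-like, 0.439 in macrophage-like and 0.327 in cancer-like cells. OE-Vector 1 was nearest to OE-MLKL 3 in neutrophil-like (0.593) and macrophage-like cells (0.526) and to OE-MLKL 2 in cancer-like cells (0.488). OE-MLKL 3 was 0.631, 0.520 and 0.566 from OE-MLKL 2 in the same order of classes. In cancer-like cells OE-MLKL 3 was nearer to OE-Vector 1 (0.504) than to OE-MLKL 1 (0.662) or OE-MLKL 2 (0.566). From 73 to 134 cell barcodes were shared by any 2 libraries, at most 0.741% of the smaller library.

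All 5 ligand genes lay in 1 locus on the plus strand of chromosome 5 within 146.579 kb (GRCm38, GENCODE vM21 annotation). From the centromeric side these were Cxcl5 (ENSMUSG00000029371, chr5:90759360-90761624), Cxcl3 (ENSMUSG00000029379, chr5:90786103-90789600), Cxcl15 (ENSMUSG00000029375, chr5:90794534-90803067), Cxcl1 (ENSMUSG00000029380, chr5:90891241-90893115) and Cxcl2 (ENSMUSG00000058427, chr5:90903871-90905938). Cxcr2 (ENSMUSG00000026180) lay at chr1:74153989-74161246 on the plus strand. Cxcl15 was the sole member with an overlapping annotated gene, Gm24322. Cxcl2 and Cxcl3 share part of their sequence: 126 of the 2159 different 50-base stretches of Cxcl2 transcripts (5.84%) also occur in Cxcl3. The nearest of them lay 227 bases from a Cxcl2 transcript end. A 50-base stretch of this kind cannot be assigned to 1 of the pair, and longer reads were not examined. None of the 1970 stretches of Cxcl1 occurs in another gene.

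The promoters of the 3 near-related ligands are shown because these genes are known NF-kappaB targets and share a run of letters there. The 80 bases from 110 to 31 before the RefSeq start (GRCm38.p6, plus strand, 5′ to 3′) follow for Cxcl1 (chr5:90891135-90891214), Cxcl2 (chr5:90903789-90903868) and Cxcl3 (chr5:90785991-90786070), with that of Cxcr2 (chr1:74153884-74153963) for contrast. Capitals mark the longest run that all 3 ligand promoters hold before the start.
Cxcl1: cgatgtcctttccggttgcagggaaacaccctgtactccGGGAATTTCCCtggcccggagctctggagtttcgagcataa
Cxcl2: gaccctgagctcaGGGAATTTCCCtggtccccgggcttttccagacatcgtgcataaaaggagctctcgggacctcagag
Cxcl3: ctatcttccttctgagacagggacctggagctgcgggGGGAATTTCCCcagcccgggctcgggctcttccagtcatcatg
Cxcr2: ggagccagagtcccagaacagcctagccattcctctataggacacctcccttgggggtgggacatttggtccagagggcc
The run, GGGAATTTCCC, has 11 letters and lay 71 to 61 bases before the start in Cxcl1, 97 to 87 in Cxcl2 and 73 to 63 in Cxcl3. Its reverse complement is GGGAAATTCCC, and 1 of the 2 forms occurred in 14 of 32851 mouse promoters of 300 bases, or 0.0426%. The letters are of the kind known as a kappaB site. Neither Cxcl15 nor Cxcr2 held the run, and Cxcl5 had no entry in the table of promoters. The run was found in these promoters and describes letters, not binding.

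The receptor was carried by neutrophil-like cells. Cxcr2 stood at 1092 CPM in OE-Vector 1 and at 1181, 749 and 1217 CPM in OE-MLKL 1, 2 and 3 (OE-MLKL mean 1049 ± 260, SD, n = 3). OE-MLKL 2 was the lowest library and the groups overlapped. These levels were 43.8 to 142 times the free-RNA background. No other gated class was clear of background in all 4 libraries, where a ratio near 1 is background: Cxcr2 was 5.29 to 11.8 CPM in macrophage-like cells (0.637 to 1.55 times background) and 2.33 to 9.69 CPM in cancer-like cells (1.10 to 1.53 times). Monocyte-like cells held 15 Cxcr2 UMIs in all 4 libraries together, at 0.158 to 0.427 times background. Fibroblast-like cells were at 0.121 to 0.312 times. The background estimate, scaled on cancer markers, thus exceeded the measured level of Cxcr2 in both classes, and their ratios to background are less certain. Neutrophil-like cells held 90.6 to 93.6% of all Cxcr2 UMIs in kept cells.

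A Cxcr2 UMI was found in 62.1% of neutrophil-like cells in OE-Vector 1 and in 55.4%, 41.5% and 73.3% in OE-MLKL 1, 2 and 3, whose median depth was 1166, 726.5, 752 and 1354 UMIs a cell. After thinning each cell to 500 UMIs the shares were 38.7%, 41.9%, 29.5% and 42.6%, which left OE-MLKL 2 lowest and brought the other libraries together. Thinned macrophage-like cells, which serve as the class without the receptor, gave at most 0.794%, and unthinned ones 2.63 to 7.93% at median depths of 4156 to 8276.5 UMIs.

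Cxcl2, also called MIP-2 and a strong neutrophil attractant, was highest in the neutrophil-like cells themselves. Its level there was 11694 CPM in OE-Vector 1 and 7749, 4523 and 8897 CPM in OE-MLKL 1, 2 and 3, which is 23.5 to 52.4 times background. The lowest neutrophil-like library lay above the highest monocyte-like one, at 1655 CPM. Monocyte-like cells stood at 1.66 to 6.17 times background. Macrophage-like cells had 868 CPM in OE-Vector 1 and 558, 497 and 729 CPM in the OE-MLKL libraries, 2.89 to 7.47 times background. Cancer-like cells had 346 CPM in OE-Vector 1 and 557, 345 and 342 CPM in the OE-MLKL libraries, at least 3.96 times background. T cell-like cells, at 74.1 to 137 CPM, stood at 0.642 to 1.56 times background. Thus 3 abundant classes were above background, and a UMI of Cxcl2 was seen in 56.7 to 86.6% of neutrophil-like, 54.1 to 78.0% of macrophage-like and 83.9% or more of cancer-like cells, or 50.6 to 76.5%, 16.9 to 25.7% and 14.8 to 23.0% after thinning.

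Cancer-like cells had median depths of 11617.5 to 25126.5 UMIs and held 15.2 to 41.2% of all Cxcl2 UMIs against 37.6 to 66.6% in neutrophil-like and at most 12.1% in macrophage-like cells. OE-MLKL 1 was the one library in which the cancer-like share exceeded the neutrophil-like share. Within neutrophil-like cells the 10% of cells richest in Cxcl2 held 35.1 to 51.4% of its UMIs, and the 10% richest in Cxcr2 held 31.2 to 42.7%. Cells were ranked on raw UMIs without regard to depth. Cxcr2 also had fewer UMIs than Cxcl2, 8472 against 90723 in OE-Vector 1, so the shares are not on 1 scale.

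**Figure D1:**
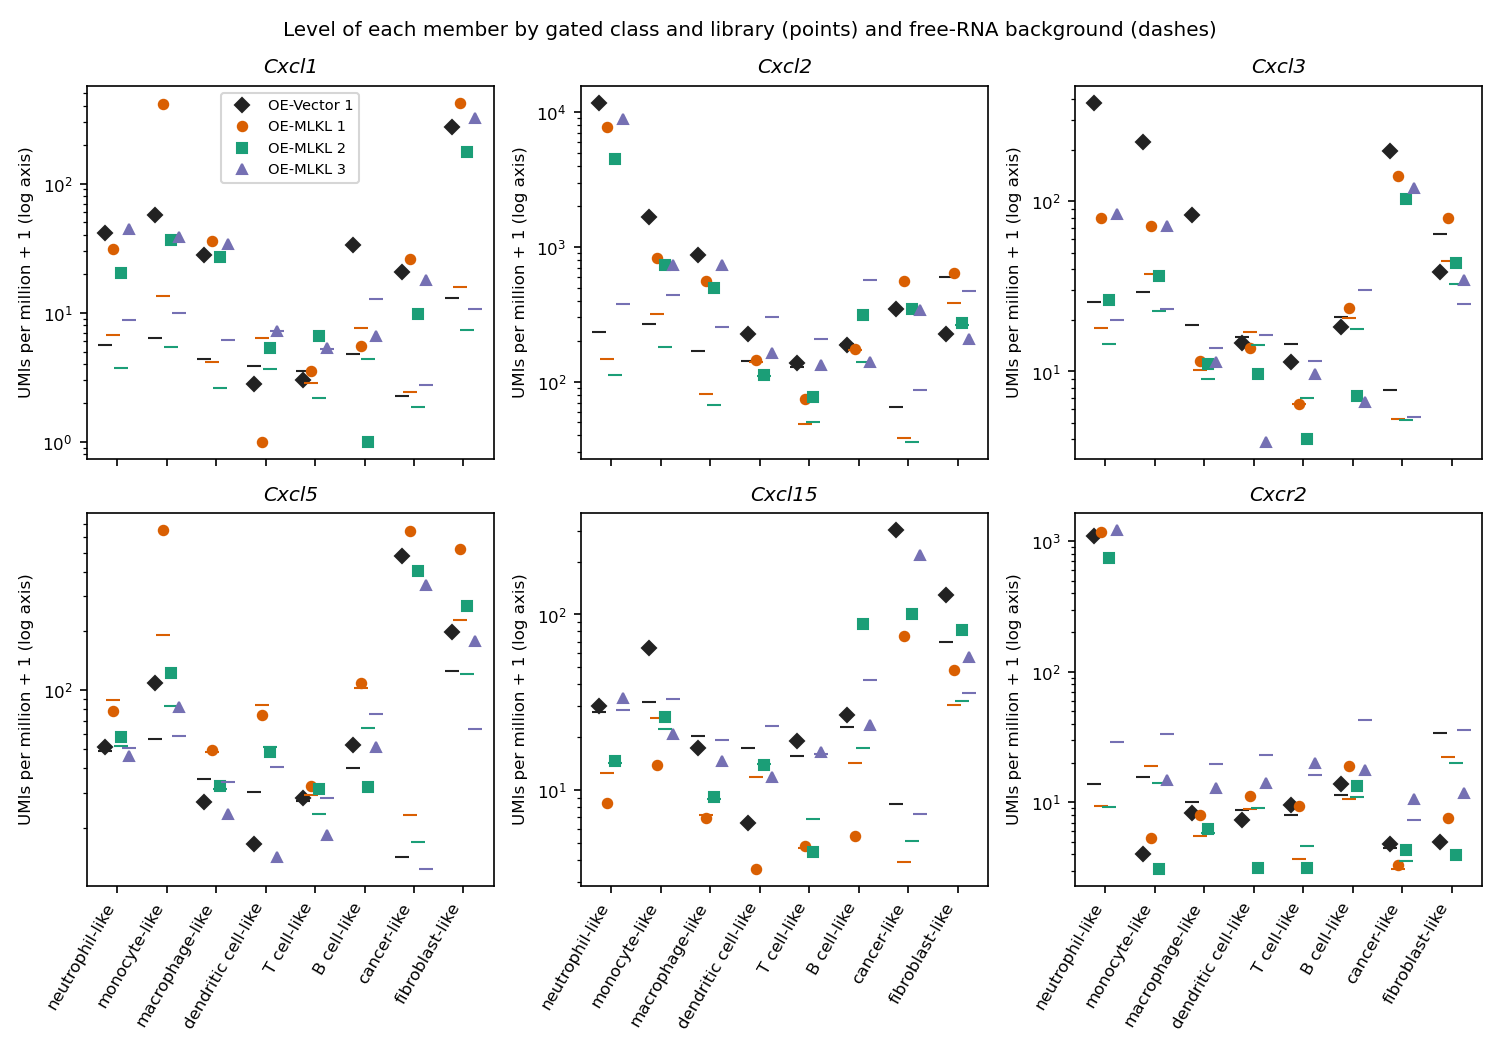
Level of each of the 6 genes (CPM plus 1, log axis) in 8 gated classes, with 1 point for each of the 4 libraries and a dash at the free-RNA background of that class and library. Cxcr2 stands above its dashes in neutrophil-like cells, Cxcl5 and Cxcl15 do so by far in cancer-like cells, and Cxcl2 in neutrophil-like, monocyte-like, macrophage-like and cancer-like cells.

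Cxcl3, the close relative of Cxcl2, was above background in cancer-like cells of every library, at 197 CPM in OE-Vector 1 and 139, 102 and 118 CPM in OE-MLKL 1, 2 and 3, or 24.3 to 32.7 times background. In neutrophil-like cells it was 378 CPM in OE-Vector 1 and 78.4, 25.2 and 83.7 CPM in the OE-MLKL libraries, 1.86 to 15.4 times background. In macrophage-like cells it was 82.6 CPM in OE-Vector 1, which is 4.67 times background. The OE-MLKL macrophage-like values of 10.6, 10.1 and 10.4 CPM were 0.809 to 1.25 times background, so an excess over free RNA was not detectable in the class as a whole. Cancer-like cells held 68.4 to 85.3% of the UMIs of Cxcl3. The Cxcl3 UMIs per 100 Cxcl2 UMIs were 3.23 in neutrophil-like and 9.51 in macrophage-like cells of OE-Vector 1, against 1.01 or fewer and 1.42 to 2.03 in the OE-MLKL libraries. Cancer-like cells had 57.1 in OE-Vector 1 against 25.0 to 34.6, while ungated cells ran the other way, with 5.06 against 11.7 to 17.7.

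Cxcl5, a ligand classically made by epithelial cells, and Cxcl15 were cancer-like products. Cxcl5 was 482 CPM in OE-Vector 1 and 644, 400 and 340 CPM in OE-MLKL 1, 2 and 3, at 25.2 to 36.6 times background. Cxcl15 was 302 CPM in OE-Vector 1 and 74.7, 99.5 and 219 CPM in the OE-MLKL libraries, at 24.2 to 41.1 times background. The libraries thus ranked differently for the 2 ligands, Cxcl15 being high in OE-Vector 1 and OE-MLKL 3 and low in OE-MLKL 1 and 2. Cancer-like cells held 76.5 to 92.0% of the Cxcl5 and 81.9 to 92.2% of the Cxcl15 UMIs. Neutrophil-like cells were at 0.877 to 1.12 times background for Cxcl5 and 0.644 to 1.17 times for Cxcl15, and macrophage-like cells at 0.680 to 1.04 and 0.738 to 1.03 times.

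In the 3 abundant classes the ratio of Cxcl5 to Cxcl15 UMIs lay near that of free RNA in the same library. Taking OE-Vector 1 first and then OE-MLKL 1 to 3, it was 1.60, 8.62, 4.02 and 1.55 in cancer-like cells and 1.80, 7.68, 3.86 and 1.80 in the free RNA of the same libraries. Neutrophil-like cells gave 1.74, 10.45, 4.21 and 1.41, and macrophage-like cells 1.58, 8.29, 3.93 and 1.66. The few Cxcl5 and Cxcl15 UMIs of neutrophil-like and macrophage-like cells thus had about the level and the ratio of free RNA and were read as background. Monocyte-like cells differed, with Cxcl5 at 1.40 to 3.44 times background. Their ratio was 50.2 in OE-MLKL 1 (602 Cxcl5 and 12 Cxcl15 UMIs), and 1.70, 4.83 and 4.10, from 10 to 63 Cxcl15 UMIs, for OE-Vector 1, OE-MLKL 2 and OE-MLKL 3. Fibroblast-like cells, at 1.59 to 2.84 times background for Cxcl5, had ratios of 1.52, 10.98, 3.33 and 3.14, with OE-Vector 1 first and then OE-MLKL 1 to 3, above free RNA in 2 libraries and below it in the other 2. Among the 4 clusters of mainly cancer-like cells, Cxcl15 ranged from 76.6 CPM in cluster 9 to 287 CPM in cluster 7, which was drawn mostly from OE-Vector 1 and OE-MLKL 3 (1129 and 2150 of 3387 cells), and Cxcl5 from 252 to 607 CPM, highest in cluster 0, drawn mostly from OE-MLKL 1 and 2.

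Cxcl1, known as KC and made by activated stroma, was highest in fibroblast-like cells by the median of the libraries, among the 10 classes with at least 20 cells in every library. Its level there was 274 CPM in OE-Vector 1 and 419, 175 and 320 CPM in OE-MLKL 1, 2 and 3, 22.8 to 32.9 times background, from only 39 to 142 cells a library. Mesothelial-like cells, with 20, 11 and 23 cells in OE-MLKL 1, 2 and 3 and 0 in OE-Vector 1, had 919, 134 and 226 CPM of Cxcl1 and were too few to be ranked. The cancer markers in fibroblast-like sums amounted to 32.1 to 41.7% of their level in free RNA. How much of this was cancer RNA and how much the cells' own expression of these markers was not tested. Cancer-like cells themselves had 8.79 to 25.3 CPM of Cxcl1, 9.53 to 17.5 times background. Neutrophil-like cells had 19.4 to 43.4 CPM and macrophage-like cells 25.9 to 34.8 CPM, both above background in every library.

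Monocyte-like cells, at 35.4 to 56.3 CPM of Cxcl1 in 3 libraries, reached 409 CPM in OE-MLKL 1, where they also had 650 CPM of Cxcl5. In that library the 8 fibroblast and pericyte markers together were 192 CPM in monocyte-like cells against 34.2 to 86.8 CPM in the other 3, with 5 of the 8 detected, and the 12 cancer markers were 621 CPM against 418 to 567 CPM. The part of these cells' RNA in the Cxcl1 and Cxcl5 values was not tested. Cancer-like cells, with the most RNA, held 38.0 to 49.9% of Cxcl1 UMIs, macrophage-like cells 8.99 to 24.5%, neutrophil-like cells 2.98 to 14.6% and fibroblast-like cells 5.24 to 12.5%.

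**Figure D2:**
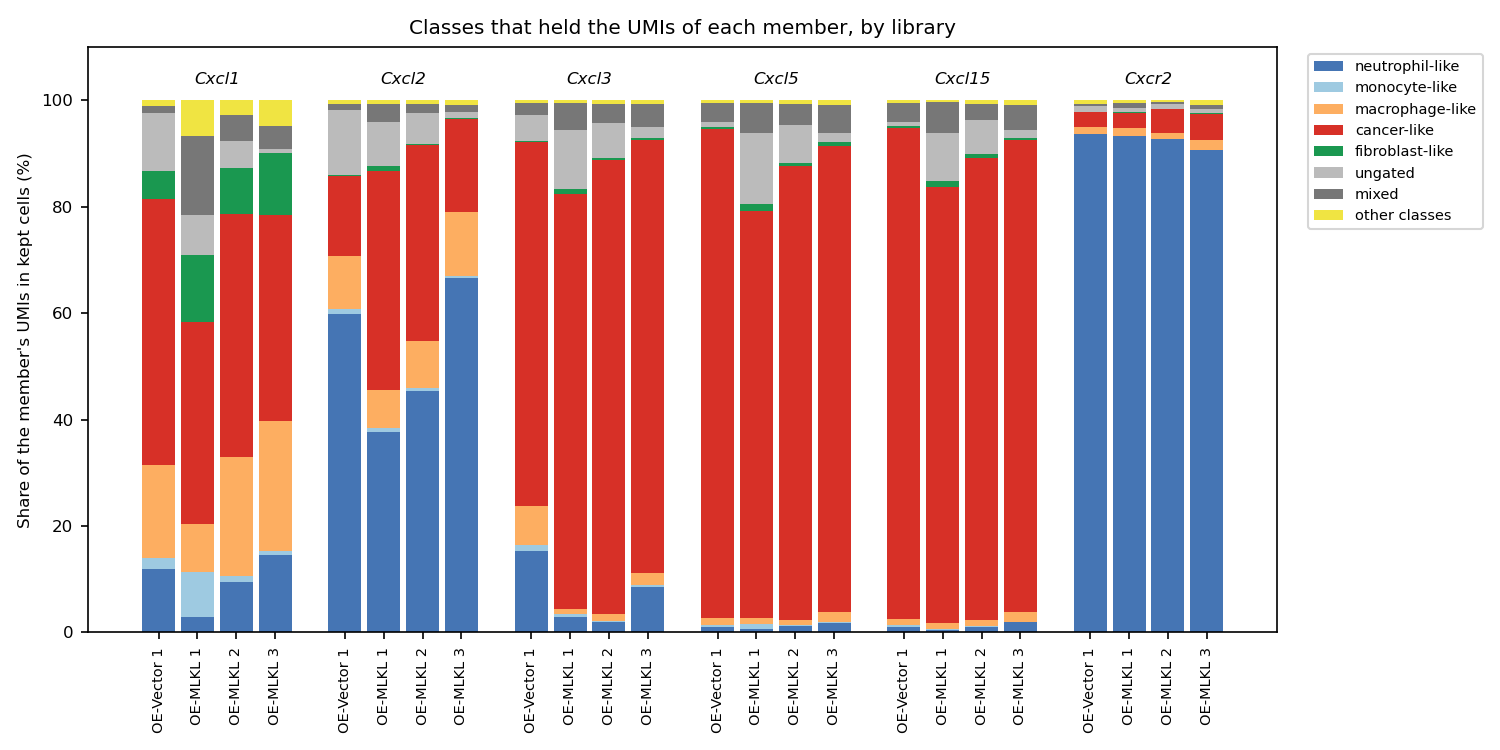
Share (%) of the UMIs of each gene in kept cells that fell in each class, with 1 stacked bar a library and 4 bars a gene. The bars of Cxcr2 are 90.6 to 93.6% neutrophil-like, those of Cxcl5 and Cxcl15 at least 76.5% cancer-like, and those of Cxcl2 divide between neutrophil-like and cancer-like cells.

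The order of the classes was tested between the 3 abundant ones with edgeR on UMI sums, each library being its own control. Most genes differ between cell types, and the share called over all genes was large, 71.4% for macrophage-like against neutrophil-like, 78.7% for cancer-like against neutrophil-like and 72.1% for cancer-like against macrophage-like cells. Of the members 5, 5 and 6 of 6 were called, above each of these shares. Since 6 members are too few to set against such large shares, the sizes are given. Cxcr2 was lower in macrophage-like than in neutrophil-like cells by a log2 fold change of -7.23 ± 0.19 (SE, adjusted p = 2.58e-07) and in cancer-like cells by -8.38 ± 0.33 (adjusted p = 2.67e-08). Cxcl2 was -3.71 ± 0.15 in macrophage-like (adjusted p = 6.15e-07) and -4.73 ± 0.32 in cancer-like cells (adjusted p = 7.62e-07) against neutrophil-like cells.

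Cxcl5 and Cxcl15 were higher in cancer-like than in neutrophil-like cells by 2.60 ± 0.14 and 2.65 ± 0.17, and higher than in macrophage-like cells by 3.62 ± 0.12 and 3.64 ± 0.12 on the log2 scale, the largest adjusted p of the 4 being 5.28e-07. Cxcl3 missed the threshold between cancer-like and neutrophil-like cells (0.17 ± 0.41, adjusted p = 0.713), and its direction turned in 3 of the settings tried. It was higher in neutrophil-like cells in OE-Vector 1 and in cancer-like cells in the 3 OE-MLKL libraries. It was 2.68 ± 0.42 higher in cancer-like than in macrophage-like cells (adjusted p = 0.000853). Cxcl1 in macrophage-like against neutrophil-like cells missed the threshold (-0.24 ± 0.20, adjusted p = 0.314) and was -1.37 ± 0.21 in cancer-like against neutrophil-like cells (adjusted p = 0.000195). The calls on Cxcl5 and Cxcl15 between macrophage-like and neutrophil-like cells (-0.99 ± 0.13 and -0.97 ± 0.17) and on Cxcr2 between cancer-like and macrophage-like cells (-1.10 ± 0.20) compared values that were at about background in both classes.

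In the levels over libraries, Cxcr2 in neutrophil-like cells, at 749 CPM or more, did not overlap the next class, ungated cells, at up to 44.4 CPM, and Cxcl2 in neutrophil-like cells did not overlap the monocyte-like cells that came next by median, although the ungated cells of OE-Vector 1, at 8041 CPM, lay within the neutrophil-like range. Of 54 pairs of neighbours in these orders 50 overlapped, among them every pair for Cxcl1 and Cxcl15. The other gaps were fibroblast-like over B cell-like for Cxcl3 and monocyte-like over neutrophil-like for Cxcl5. Over 42 sums of class and library, the genes most like Cxcr2 in level were Asprv1 (r = 0.923), S100a9 (0.918) and S100a8 (0.912), the last pair being neutrophil gate markers. Those most like Cxcl2 were Cd14 (0.908), Cebpb (0.904) and Grina (0.904), and those most like Cxcl5 were Prrx2 (0.928), Npdc1 (0.919) and Rasl11a (0.918). Cxcl15 was most like Lurap1l (0.862), Cxcl1 most like Pdpn (0.859) and Cxcl3 most like Spp1 (0.766). The sums share libraries and free RNA, and these correlations are a description.

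Neutrophil-like cells were divided into states by summed markers, again without the members. The Retnlg-Mmp8 state used Retnlg, Mmp8, Lcn2, Ltf, Camp, Ngp and Cebpe, genes of granule and younger neutrophils. The Ccl3-Ccl4 state used the inflammatory chemokines Ccl3 and Ccl4 with Siglecf, Cstb, Hilpda and Spp1, so a cell could enter it without Ccl3 or Ccl4. The others were cells rich in interferon-induced genes and the rest. Per UMI, Cxcr2 was highest in the first state and Cxcl2 in the second. Cxcr2 in the Retnlg-Mmp8 state was 1773, 1251, 982 and 1499 CPM in OE-Vector 1 and OE-MLKL 1, 2 and 3, against 682, 779, 459 and 818 CPM in the Ccl3-Ccl4 state. It was higher in the Retnlg-Mmp8 state in 4 of 4 libraries, by 1.61 to 2.60 times. Cxcl2 was 7176, 8178, 4832 and 10318 CPM in the Retnlg-Mmp8 state and 15577, 11711, 8095 and 11020 CPM in the Ccl3-Ccl4 state, higher in the latter in 4 of 4 libraries. Median depth was somewhat higher in the Retnlg-Mmp8 state in every library, at 1326, 773, 822.5 and 1646.5 UMIs a cell against 1156.5, 690, 712 and 1312.

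With library as a block, edgeR called 18.3% of 8796 genes between these states. Cxcr2 was the sole member called, higher in the Retnlg-Mmp8 state by 1.41 ± 0.16 on the log2 scale (adjusted p = 4.09e-05), and the call held in 16 of 16 settings. Cxcl2 (-0.22 ± 0.15, adjusted p = 0.348), Cxcl3 (-0.42 ± 0.19, adjusted p = 0.147) and Cxcl1 (-0.85 ± 0.32, adjusted p = 0.0838) did not pass. Apart from that of Cxcr2, these calls depended on the scaling. With library size alone in place of TMM the median of all genes moved from -0.02 to -0.42, and the genes called turned from 1054 higher and 558 lower to 422 higher and 2514 lower. Cxcl2 was then lower in the Retnlg-Mmp8 state at -0.62 (adjusted p = 0.00767), Cxcl3 at -0.84 (adjusted p = 0.00896) and Cxcl1 at -1.26 (adjusted p = 0.0162), while Cxcr2 was higher (adjusted p = 0.000332). The states were unevenly spread, the Ccl3-Ccl4 state making up 38.7% of neutrophil-like cells in OE-Vector 1 and 9.86, 12.9 and 19.3% in the OE-MLKL libraries, and the Retnlg-Mmp8 state 4.11% against 44.3, 26.0 and 18.1%.

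A single cluster of 692 cells, cluster 15, carried far more Cxcl2 than any class. Its cells came mainly from OE-Vector 1 (524, against 37, 113 and 18), and its leading genes were Ccl3, Ccl4, Hcar2, Il1rn, Hilpda and Cxcl2 itself. Since Cxcl2 took part in the clustering, its level there is a description: 51487 CPM in OE-Vector 1 and 34272, 33286 and 23266 CPM in OE-MLKL 1, 2 and 3. Cxcl3 was 2703 CPM in the OE-Vector 1 cells and 119 to 466 CPM in the others, while Cxcr2 was 39.7 to 121 CPM, below its level in neutrophil-like cells. Of these cells 232, 16, 58 and 5 passed no marker gate, and ungated cells had 8041 CPM of Cxcl2 in OE-Vector 1 against 739 ± 74.7 CPM (SD, n = 3) in the OE-MLKL libraries.

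The Arg1 state of macrophage-like cells was gated on the sum of Arg1, the arginine-consuming enzyme of suppressive macrophages, Spp1, Hilpda and Ero1l. In OE-Vector 1 it made up 778 of the 1978 macrophage-like cells and held 1257 of their 1416 Cxcl3 UMIs. Cxcl3 in the Arg1 state was 182 CPM in OE-Vector 1 and 9.09, 16.1 and 16.7 CPM in OE-MLKL 1, 2 and 3. The remaining OE-Vector 1 macrophages without a state had 15.7 CPM and those rich in Mrc1 and F13a1 had 14.1 CPM. Macrophages without a state had 10.6, 6.36 and 8.71 CPM in OE-MLKL 1, 2 and 3, so the Arg1 state was not the higher in OE-MLKL 1. Cxcl2 was higher in the Arg1 state in every library, at 1418, 813, 596 and 1166 CPM against 486, 489, 403 and 594 CPM in macrophages without a state. Cxcr2 remained at 5.18 to 13.7 CPM in the Arg1 state. In OE-Vector 1 the macrophage-like cells with a Cxcl3 UMI were 17.9% of the class, or 3.31% after thinning, against 4.34 to 5.93% and 0.478 to 0.528% in the OE-MLKL libraries.

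**Figure D3:**
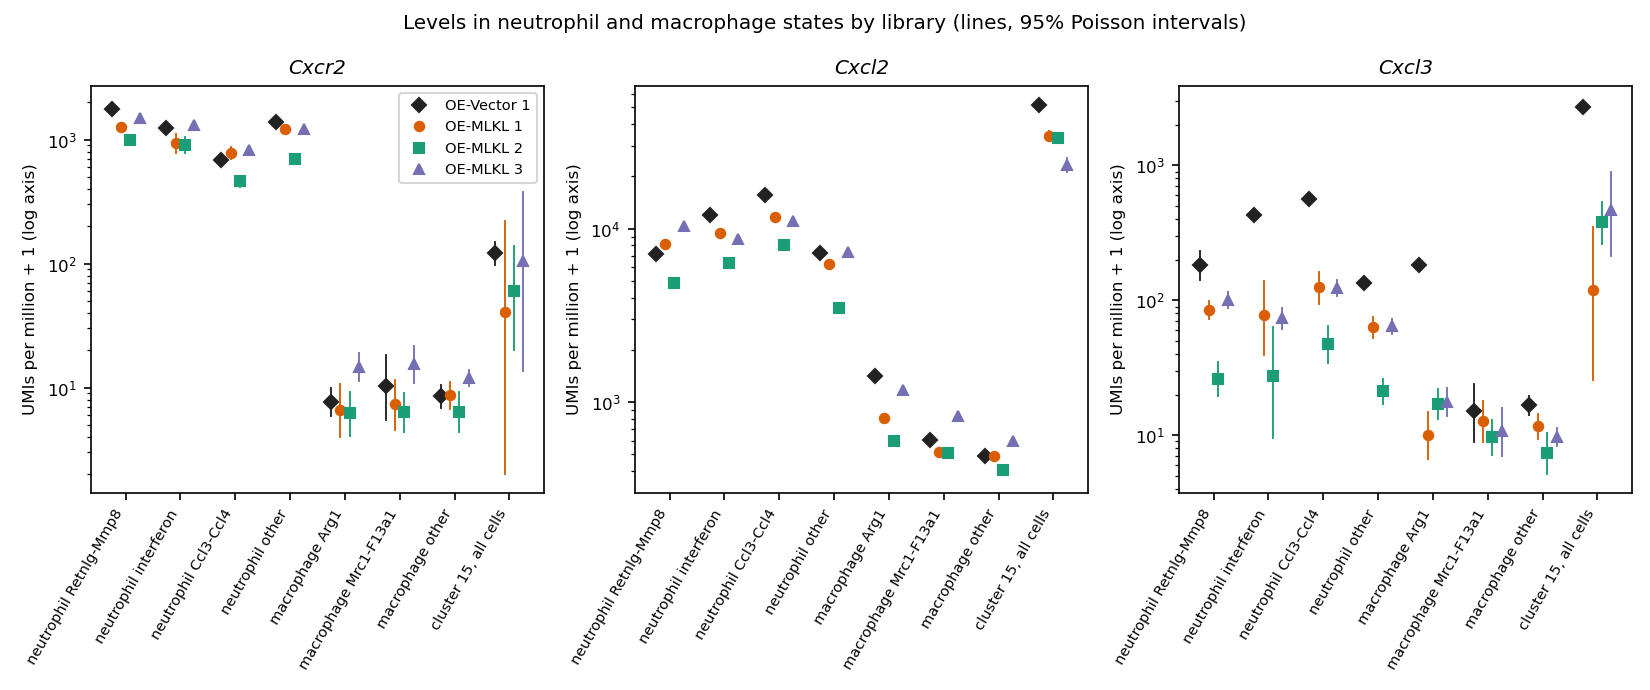
Levels of Cxcr2, Cxcl2 and Cxcl3 (CPM plus 1, log axis) in neutrophil and macrophage states and in cluster 15, with 1 point for each of the 4 libraries and its 95% Poisson interval, which covers counting error only. Cxcr2 is higher in Retnlg-Mmp8 than in Ccl3-Ccl4 neutrophils in 4 of 4 libraries, and Cxcl3 in the Arg1 state stands at 182 CPM in OE-Vector 1 and at 9.09 to 16.7 CPM in the OE-MLKL libraries.

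The question of the design is whether MLKL overexpression in the cancer cells changes the tumour around them, here the chemokine axis. The comparison set 1 library against 3, so the tumour and the construct cannot be told apart, and the spread came from the OE-MLKL libraries with 2 residual degrees of freedom, the lone OE-Vector library being assumed to vary like them. Each library is described as a tumour of its own in the methods, and p-values measure the spread between these tumours.

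Among neutrophil-like sums, 0 of 12890 genes (0%) were called by edgeR, with 1038 at an unadjusted p under 0.05, while DESeq2 called 100 and limma-voom 0. None of the 6 members was called. Cxcl3 gave -2.83 ± 0.59 on the log2 scale (OE-MLKL minus OE-Vector, adjusted p = 0.562, the range over 15 settings being 5.84e-06 to 0.622), and 4 of those settings called it, among them DESeq2 (adjusted p = 0.000891). It was lower in 3 of 3 OE-MLKL libraries. The libraries' neutrophil-like cells sat mostly in different clusters, with at least 97.8% of OE-MLKL 1 and OE-MLKL 2 in clusters 1, 3 and 14, and 94.8% of OE-Vector 1 and 98.0% of OE-MLKL 3 in clusters 2, 6 and 11. Cluster 15 held 283 of the 6249 neutrophil-like cells of OE-Vector 1, with 44.1% of their Cxcl3 and 23.1% of their Cxcl2 UMIs, and 0.188 to 0.633% of the cells in the OE-MLKL libraries. Outside cluster 15 Cxcl3 was 222 CPM in OE-Vector 1 and 78.2, 24.4 and 82.9 CPM in OE-MLKL 1, 2 and 3, and Cxcl2 was 9463 CPM against 7686, 4298 and 8873 CPM, both as a description, since these genes took part in the clustering. Cxcl2, at 11694 CPM against 7056 ± 2268 CPM (SD, n = 3), gave -0.96 ± 0.50 (adjusted p = 0.667). Cxcr2 gave -0.28 ± 0.43 (adjusted p = 0.895), Cxcl1 -0.61 ± 0.43 (adjusted p = 0.747) and Cxcl15 -0.94 ± 0.65 (adjusted p = 0.741), the last at background throughout. OE-Vector 1 lay above all OE-MLKL libraries for 2 of the 6 members, Cxcl2 and Cxcl3, while over all genes 58.0% lay outside the OE-MLKL range.

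Among macrophage-like sums, 4 of 13612 genes (0.0294%) were called, and Cxcl3 was 1 of them, the others being Tnfrsf9, Apol7c and Nos2, all lower in OE-MLKL. Cxcl3 was 82.6 CPM in OE-Vector 1 and 10.3 ± 0.242 CPM (SD, n = 3) in OE-MLKL, a log2 fold change of -3.09 ± 0.24 (edgeR, adjusted p = 0.0183). The OE-MLKL side was at its background of 8.04 to 12.8 CPM, and the background of OE-Vector 1 was higher, at 17.7 CPM, so the fold change is larger than the 4.67 times by which OE-Vector 1 exceeded its own free RNA. The call was lost with limma-voom (adjusted p = 0.0699), without OE-MLKL 2 (adjusted p = 0.330) and with doublets kept (-2.08, adjusted p = 0.669), and held in 12 of 15 settings. The libraries' macrophage-like cells sat mostly in different clusters, 96.2% and 89.3% in cluster 4 for OE-MLKL 1 and 2, against 65.9% and 88.1% in cluster 5 for OE-Vector 1 and OE-MLKL 3. Cluster 16 held 15.3% of macrophage-like cells in OE-Vector 1 and 1.48 to 1.96% in the OE-MLKL libraries, and 1189 of the 1416 Cxcl3 UMIs of the class in OE-Vector 1. Cxcl3 took part in the clustering, so these levels are a description: within cluster 16 it was 457 CPM in OE-Vector 1 and 18.3, 90.6 and 43.5 CPM in OE-MLKL 1, 2 and 3, from 5 to 25 UMIs each in the latter. In the macrophage-like cells outside cluster 16 it was 15.6 CPM in OE-Vector 1 and 10.4, 8.17 and 9.79 CPM in the OE-MLKL libraries. The 11 neutrophil markers together were 599 CPM in macrophage-like cells of OE-Vector 1 and 535, 646 and 909 CPM in the OE-MLKL libraries, and the part of neutrophil RNA in the Cxcl3 value was not tested. Cxcl2 gave -0.65 ± 0.34 (adjusted p = 0.841), Cxcl1 0.12 ± 0.30 (adjusted p = 0.970) and Cxcr2 0.04 ± 0.46 (adjusted p = 0.996). OE-Vector 1 lay above the OE-MLKL range for 3 of 6 members, Cxcl2, Cxcl3 and Cxcl15, against 53.5% of all genes outside it. Cxcl15 in macrophage-like cells was at background throughout, at 0.738 to 1.03 times.

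In cancer-like cells, to which the labels assign the construct, edgeR called 1 of 16425 genes (0.00609%), which was Hbb-bs, a haemoglobin gene, and no member. These cells, too, sat in different clusters by library: cluster 0 held 5262 and 4440 cells of OE-MLKL 1 and 2 against 370 of OE-Vector 1 and 241 of OE-MLKL 3, while cluster 7 held 1129 from OE-Vector 1 and 2150 from OE-MLKL 3 against 41 and 67 from the others. Cxcl15 was 104 CPM in cluster 0 and 287 CPM in cluster 7. Among the members Cxcl15 had the largest change, -1.34 ± 0.48 (adjusted p = 0.998), from 302 CPM to 131 ± 76.9 CPM (SD, n = 3), followed by Cxcl3 at -0.79 ± 0.32 (adjusted p = 0.998), from 197 CPM to 120 ± 18.5 CPM. Both were lower in 3 of 3 OE-MLKL libraries, and Cxcl15 was called in 1 of 15 settings, without OE-MLKL 3 (-1.78). Cxcl5 gave -0.12 ± 0.50, Cxcl2 0.20 ± 0.47, Cxcl1 -0.29 ± 0.55 and Cxcr2 0.26 ± 0.72 (adjusted p = 0.998 each). OE-Vector 1 lay above the OE-MLKL range for 2 of 6 members, Cxcl3 and Cxcl15, against 48.0% of all genes outside it. In neutrophil-like, macrophage-like and cancer-like cells alike, the members' share outside the range was no larger than that of all genes. Other classes were not set against all genes.

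The difference between the groups was itself compared between macrophage-like and neutrophil-like cells. edgeR called 2 of 12650 genes (0.0158%) and no member. The interaction was -0.11 ± 0.56 for Cxcl3 (adjusted p = 0.975), 0.78 ± 0.37 for Cxcl1 (adjusted p = 0.628) and 0.37 ± 0.29 for Cxcl2 (adjusted p = 0.761). The call of Cxcl3 in macrophage-like cells alone is thus not shown to differ from its value in neutrophil-like cells.

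**Figure D4:**
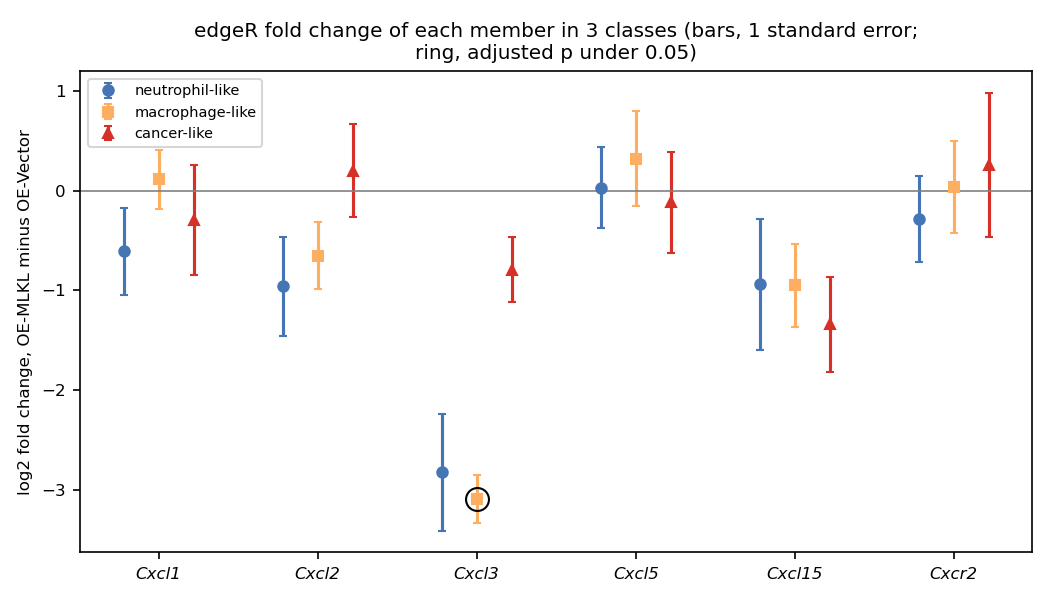
Fitted log2 fold change (OE-MLKL minus OE-Vector, edgeR) of each gene in neutrophil-like, macrophage-like and cancer-like cells, with bars of 1 standard error and a ring where the adjusted p was under 0.05. The lowest points are those of Cxcl3 in neutrophil-like (-2.83) and macrophage-like cells (-3.09), and the ring marks the latter alone.

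Small classes were not tested. In monocyte-like cells Cxcl3 was 221 CPM in OE-Vector 1 against 35.4 to 71.0 CPM, and Cxcl2 1655 CPM against 731 to 826 CPM. OE-Vector 1 lay above the OE-MLKL range for 3 of 6 members, Cxcl2, Cxcl3 and Cxcl15, and within it for 3. The share of all genes outside that range was not determined for this class. The 6 monocyte markers together were 6360 CPM there in OE-Vector 1 and 1829, 2791 and 2167 CPM in OE-MLKL 1, 2 and 3. The part of this difference in the chemokine values was not tested. In fibroblast-like cells Cxcl1 overlapped, at 274 CPM against 175 to 419 CPM.

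Other genes of the pathway were read as lists. Between the labelled groups none of their genes was called in any of the 3 classes. The lists gave a median log2 fold change in neutrophil-like cells of -0.29 for 17 genes of CXCR2 signalling and adhesion and -0.57 for 17 inducers and feedback genes of ELR chemokine transcription, against 0.04 over all genes. The smallest unadjusted p among them belonged to Il1a, an alarmin that induces these chemokines, at -2.93 ± 0.60 (adjusted p = 0.562), and Tlr4, the lipopolysaccharide receptor, at -1.32 ± 0.39 (adjusted p = 0.562). In a list of related chemokines and receptors, Pf4, a platelet chemokine that is also a macrophage gate marker, had -1.89 ± 0.32 (adjusted p = 0.562). The list was named for other CXCR2 ligands and receptors, and whether Pf4 is such a ligand was not tested here. Mif, a cytokine that can bind CXCR2, had -1.46 ± 0.35 (adjusted p = 0.562). Pik3r5 and Grk6, a kinase that desensitises chemokine receptors, gave -0.71 ± 0.30 and 0.87 ± 0.37 (adjusted p = 0.631 both). Cxcr4, which holds neutrophils in the marrow, gave -1.18 ± 0.32 (adjusted p = 0.562). Csf3r, the G-CSF receptor, gave -0.96 ± 0.41 (adjusted p = 0.631). It is also a neutrophil gate marker, so these cells were selected in part on its UMIs. Of other CXC chemokines, Cxcl10 and Cxcl14 had -0.85 ± 0.51 and -1.36 ± 1.10 (adjusted p = 0.707 and 0.764).

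In macrophage-like cells the medians of the same 2 lists of 17 genes were 0.05 and 0.22, against 0.04 over all genes. Il17ra, the receptor of a cytokine that induces Cxcl1 and Cxcl5, had 1.33 ± 0.34 (adjusted p = 0.664), and Tnfaip3, a brake on NF-kappaB, had 0.96 ± 0.34 (adjusted p = 0.799). Csf3r, the G-CSF receptor, had -0.33 ± 0.35 (adjusted p = 0.908). In cancer-like cells the medians were -0.15 and -0.16, against 0.03 over all genes, and with library size scaling the first was 0.02 against 0.12. Cxcl16 there had -0.99 ± 0.38, Cxcl10 -0.96 ± 0.44 and Pik3r5 -1.52 ± 0.57 (adjusted p = 0.998 each).

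Of the 17 genes of CXCR2 signalling and adhesion, 13 were called higher in the Retnlg-Mmp8 state and 0 lower, where 12.0% of all genes were called higher and 6.34% lower, and their median was 0.63 against -0.02 over all genes. With library size scaling 5 were higher and 0 lower, against 4.80% and 28.6% of all genes, with a median of 0.22 against -0.42. Itgb2, the beta chain of the integrins that hold neutrophils to endothelium, was higher by 0.90 ± 0.14 (adjusted p = 0.000412). Prex1, a Rac exchange factor, was higher by 0.96 ± 0.15 (adjusted p = 0.000452), and Pik3cg, the kinase downstream of chemokine receptors, by 0.99 ± 0.15 (adjusted p = 0.000565). Cxcr1, the sister receptor of Cxcr2, was higher by 2.38 ± 0.28 (adjusted p = 6.36e-05). Of the 16 inducer and feedback genes tested, 5 were higher, among them Il17ra (0.81 ± 0.15, adjusted p = 0.00181) and Hif1a (0.96 ± 0.19, adjusted p = 0.00315), and 3 were lower, led by Tnf, the cytokine, at -1.60 ± 0.20 (adjusted p = 8.95e-05). With library size scaling 2 were higher and 5 lower. Csf3r, a neutrophil gate marker, was higher by 0.73 ± 0.14 (adjusted p = 0.00241), which passed with TMM and not with library size scaling. Cxcl10 was lower, at -0.58 ± 0.16 (adjusted p = 0.0247).

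Between classes, 17 of the 17 signalling and adhesion genes were lower in cancer-like than in neutrophil-like cells under either scaling, where 36.8% of all genes were called lower and 41.9% higher, or 28.8% and 51.1% with library size scaling. In macrophage-like against neutrophil-like cells 33.9% of all genes were lower and 37.5% higher, and 10 of the 17 were lower and 0 higher. With library size scaling 8 were lower and 1 higher, against 29.9% and 41.3% of all genes. The list's share of lower calls was thus above that of all genes, and its share of calls in both directions together was below it. Of the 17 inducer and feedback genes, 11 were lower in macrophage-like than in neutrophil-like cells and 2 higher, against 33.9% and 37.5% of all genes. The share called in both directions together was close to the 71.4% of all genes, and that of lower calls was above theirs. The lower genes were led by Il1b, an NF-kappaB-activating cytokine, at -4.42 ± 0.12 (adjusted p = 2.58e-07). Cxcr1 was lower in macrophage-like cells by -6.64 ± 0.28 (adjusted p = 6.54e-07). Of the CXC chemokines of other receptors 4 of 5 tested were higher in macrophage-like than in neutrophil-like cells and 1, Cxcl10, was lower (-0.59 ± 0.23, adjusted p = 0.0437), a call that was lost with library size scaling. Those higher included Cxcl16 (4.68 ± 0.28, adjusted p = 2.76e-06) and Cxcl9 (3.95 ± 0.36, adjusted p = 2.78e-05).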

How the data were processed

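The samples were orthotopic pancreatic tumours profiled by droplet 3′ single-cell RNA sequencing. The authors deposited raw, unnormalised UMI counts per gene and barcode, including barcodes without cells. The submitters' processing notes name Cell Ranger 2.1.1 and mm10, the study's methods and the file headers name other versions, and whether introns were counted was not established. The members and gene lists were chosen with earlier results of these data known.

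Barcodes with at least 500 UMIs, over 200 genes, under 10% mitochondrial and at most 5% haemoglobin UMIs were kept, and the highest doublet scores were removed at 0.8% per 1000 cells. A cell was given to a class when at least 2 of its markers exceeded free RNA with a Poisson tail under 0.01, and called mixed when a second class came near. The marker lists were fixed first, but this scoring and its limits were set after the data had been seen. Neutrophil and macrophage states were cells at or above the 75th percentile of a state's markers.

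Sums of UMIs in each class of a library went into edgeR 4.0.16 (R 4.3.3; quasi-likelihood F-test, filterByExpr, TMM), with Benjamini-Hochberg adjustment over all genes at 0.05 and library as a block between classes or states. Alternatives were DESeq2 1.42.0, limma-voom (3.58.1), other filters, gates and scaling, and leaving out each OE-MLKL library. The tests were tried on simulated data. Named genes were all members, the called list genes with the smallest adjusted p (or the smallest unadjusted p where none was called), and the genes most correlated with each member. Poisson and binomial intervals (95%, exact) cover counting error only. Sequences came from RefSeq (GRCm38.p6).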

Additional observations from a re-analysis of the deposited data

Results flagged for a closer look

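The difference between the labelled groups itself differed between macrophage-like and neutrophil-like cells for 2 genes outside the axis, by the edgeR interaction test. No gene was called without OE-MLKL 2, and 1 was called with doublets kept, so these calls depend on both. The OE-MLKL effect in macrophage-like minus that in neutrophil-like cells was -4.53 on the log2 scale for Mmp8, a neutrophil collagenase, and -4.39 for Chil3, a chitinase-like protein. Mmp8 was 55.7 CPM in OE-Vector 1 against 6.48 to 11.3 CPM in the OE-MLKL libraries in macrophage-like cells, and 169 against 528 to 938 CPM in neutrophil-like cells, so the directions were opposite. Chil3 was higher in OE-MLKL in both, at 187 against 271 to 1447 CPM in macrophage-like and 56.6 against 2470 to 8488 CPM in neutrophil-like cells. Mmp8 is also a neutrophil gate and state marker, and the Retnlg-Mmp8 state made up 4.11% of neutrophil-like cells in OE-Vector 1 against 18.1 to 44.3% in the OE-MLKL libraries. The part of the gate and of the states in these values was not tested.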

How the results depend on the processing

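No paired analysis was possible because the libraries with counts share only replicate number 1 between the groups. The stricter marker gate and the scaling by library size alone were chosen after seeing the data. Among member fold changes, 652 kept their direction and side of the threshold, 29 reversed, 11 passed only in the alternative and 4 lost the call. The counts called in neutrophil-like, macrophage-like and cancer-like cells and in the interaction were 51, 18, 4 and 271 with no filter on low counts, and 100, 72, 76 and 28 with DESeq2. limma-voom called 0 in macrophage-like and 0 in cancer-like cells and 4 in the interaction. Keeping doublets left 0 in macrophage-like cells and 1 in the interaction, and classes from the Leiden clusters gave 5 in the interaction. Between neutrophil states 1054 genes were called with DESeq2, 179 with no library block and 2936 with library size scaling. In class pairs against cancer-like cells, library size scaling turned the calls from 6179 higher and 5431 lower to 7540 and 4244 against neutrophil-like, and from 5594 and 5084 to 7088 and 3986 against macrophage-like cells. Leaving out 1 OE-MLKL library gave 10 to 1200 calls in neutrophil-like, 0 to 228 in macrophage-like, 26 to 577 in cancer-like cells, 510 to 1512 between states and 0 to 981 in the interaction, the highest without OE-MLKL 3 except between states, where it was without OE-MLKL 1. With a library left out the group comparisons have 1 residual degree of freedom, and the lone OE-Vector library is assumed to vary like the rest.

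The reversed log2 fold changes all belonged to values that missed the threshold. OE-MLKL minus OE-Vector, Cxcl5 in neutrophil-like cells turned to -0.0054 with no filter, -0.0091 with limma-voom and -0.0099 in cells with at least 1000 UMIs, and was -0.23 to 0.21 with an OE-MLKL library left out. With a library left out, values in macrophage-like cells were -0.012 to 0.22 for Cxcl1, -0.066 to 0.59 for Cxcl5 and -0.30 to 0.24 for Cxcr2, and Cxcl1 was -0.16 with Leiden classes. In cancer-like cells they were -0.79 to 0.011 for Cxcl1, -0.14 to 0.39 for Cxcl2, -0.50 to 0.12 for Cxcl5 and -0.43 to 0.57 for Cxcr2. Cxcl3 in cancer-like against neutrophil-like cells was -0.31 to 0.23 with a library left out, -0.017 with doublets kept and -0.51 with no library block. Between neutrophil states, keeping doublets gave 0.055 for Cxcl2, -0.67 for Cxcl5 and -0.20 for Cxcl15. Cxcl15 there was -0.26 to 0.26 with a library left out, -0.16 with no library block and -0.31 with library size scaling, which gave -0.016 for Cxcl5. The interaction with a library left out was -0.67 to 0.24 for Cxcl3 and -0.078 to 0.43 for Cxcl15. Keeping doublets gave 0.51 for Cxcl3, -0.57 for Cxcl5 and -0.43 for Cxcl15, and library size scaling -0.034 for Cxcl15. The causes were not tested.

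Thinning, which can only lower a share of cells with a UMI, moved 53 of 60 mean shares by more than 1 SD. Of the mean levels, 127 of 168 moved by less. Monocyte-like and fibroblast-like levels rest on few cells, and their ratios to background are uncertain.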
